A study of Mus musculus with 15 samples.

Results

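10 genes that handle fatty acids, listed by name, were followed through microglia and forebrain of mice bred for deletion of Atg7, an autophagy gene, from microglia: Lpl, Cd36, Fabp3, Fabp5, Acsl1, Dgat1, Plin2, Plin3, Pnpla2 and Mgll. The genes were listed by function, by a rule that names no measured value, but with earlier results of these data known. All 10 were found in the bulk table of 54532 genes and in the single-cell matrices of 32285 genes, and all 10 passed the filter on low counts in the bulk test.

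Cells take up fatty acids after lipases at the cell surface or in lysosomes free them from lipoproteins, bind them to small carrier proteins in the cytosol, and activate them to acyl-CoA. Surplus fatty acid is esterified to triglyceride and stored in lipid droplets, which perilipins coat, and is freed again by a cascade of neutral lipases. In microglia, lipoprotein lipase is known as a gene of the state around amyloid plaques, and lipid droplets are known to build up in microglia with age.

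The study measured mice of the C57BL/6 strain, which received 1.5 mg tamoxifen when 2 months old and were sampled at 8 months. Sorted microglia came from ATG7FF mice (control, 1 library pooled from 3 forebrains) and from ATG7FF;Cx3cr1CreER mice (called cKO here, 1 library pooled from 4 forebrains), and were read as UMIs (unique molecular identifiers, each standing for 1 captured RNA molecule) by 3' single-cell RNA-seq. Bulk RNA-seq covered forebrains with the 5xFAD transgenes, 6 libraries of ATG7FF; 5xFAD mice (control) and 7 of Cx3cr1CreER;ATG7FF;5xFAD mice (cKO). Floxed Atg7 alleles and tamoxifen were common to all groups. Only cKO mice carried the CreER insertion in Cx3cr1, so an effect of the insertion and an effect of the deletion cannot be told apart. Cx3cr1 is also active in macrophages at the borders of the brain, and the 5xFAD transgenes are known to be driven by a neuronal promoter. Whether every bulk library came from its own mouse is not stated, and the p-values therefore reflect variation among the libraries, which may be technical.

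Bulk libraries held 16658707 to 22355512 counts. The single-cell libraries differed in depth, with a median of 1392 UMIs in 6227 control and 4800 UMIs in 7665 cKO microglia-like cells. The targeted gene did not check the labels. Atg7 stood at 15.8 CPM (counts scaled to a common library total, 95% interval 13.4 to 18.6) in control and 17.5 CPM (16.2 to 18.9) in cKO microglia, a ratio of 1.11 (0.922 to 1.33). In forebrain it ran from 21.2 to 27.4 CPM in controls and from 22.8 to 25.8 CPM in cKO libraries. No source used here names the exons removed, 3' tags need not cover them, and other forebrain cells keep the gene. All 16 microglia markers fixed for this check were detected in both single-cell libraries. Of 7 border macrophage markers, Cd163 and Lyve1 had 0 UMIs in both libraries, and the list summed to 5.83 CPM in control and 14.8 CPM in cKO cells. In the forebrains 13 of 16 microglia markers fell, and their summed level ran from 709 to 862 CPM in controls and from 465 to 500 CPM in cKO libraries. No gene of the other 13 marker lists, which cover macrophages, blood cells, glia, neurons and vessels, passed the bulk test. The part of these marker shifts in the results below was not tested. In bulk tissue, fewer cells of a type and less RNA per cell cannot be told apart.

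Members differed in where their RNA was found. Among control forebrains, on a scale per kilobase of exon (RPKM, CPM divided by exon length), Fabp3 stood highest at 48.1 ± 7.31 RPKM (SD, n = 6), followed by Mgll at 35.7 ± 1.13 and Fabp5 at 17.3 ± 1.98 RPKM. Pnpla2 (6.98 ± 0.820), Acsl1 (5.60 ± 0.333), Dgat1 (5.25 ± 0.521) and Plin3 (4.26 ± 0.321) formed a run in which each gene's range overlapped that of the next. On this scale Lpl (3.28 ± 0.332), Plin2 (2.23 ± 0.215) and Cd36 (0.651 ± 0.157) stood lowest, each apart from its neighbours. The ranges of Fabp3 and Mgll overlapped too. This order depends on the exon lengths, which ran from 823 bases for Fabp3 to 10483 bases for Acsl1. In mean CPM of the same controls, before that division, Lpl (34.37) stood above Pnpla2 (21.08), Plin3 (16.12) and Dgat1 (16.04). Mgll (181.3), Fabp5 (61.71) and Acsl1 (58.7) stood above Fabp3 (39.61 CPM). Plin2 and Cd36 were lowest on both scales. In control microglia the order was another one. There the 3' tags give each molecule 1 count whatever its length, and Mgll led with 122 CPM, ahead of Acsl1 (54.8 CPM), Pnpla2 (34.6 CPM), Plin2 (17.0 CPM), Dgat1 (13.6 CPM), Plin3 (11.5 CPM) and Lpl (5.28 CPM). Fabp5 (1.10 CPM), Fabp3 (0.660 CPM) and Cd36 (0.110 CPM) were last, with 10, 6 and 1 UMIs. The counting intervals of Plin2 and Dgat1, of Dgat1 and Plin3, of Fabp5 and Fabp3, and of Fabp3 and Cd36 overlapped. The fatty acid carriers Fabp3 and Fabp5 thus ranked 1 and 3 in forebrain by RPKM, with Mgll between them, and 9 and 8 in sorted microglia by CPM. These orders use unlike scales, and only the forebrains carried the 5xFAD transgenes.

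The single-cell comparison asked how microglia without amyloid differ after the deletion. Lpl was the member that differed most, at 5.82 times its control level, and Fabp5 stood at 3.01 times from a very low base. The droplet coat genes Plin2 and Plin3 and the triglyceride lipase gene Pnpla2 stood 1.17 to 1.35 times higher in cKO cells. Mgll and Acsl1, the 2 most abundant members, stood lower. With 1 pooled library per genotype no test across mice could be made, and the 95% intervals cover counting error only.

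Lpl encodes lipoprotein lipase, which frees fatty acids from the triglyceride of lipoproteins (chromosome 8, 68880491 to 68907448 on GRCm38). It had 48 UMIs, or 5.28 CPM (3.89 to 6.996), in control cells and 1181 UMIs, or 30.7 CPM (29.0 to 32.5), in cKO cells. The ratio was 5.82 (4.36 to 7.94). Of 6747 genes with at least 20 CPM in 1 library, 1.79% stood at least 1.5-fold higher and 1.38% at least 1.5-fold lower in cKO cells, 3.17% either way. Of the 5 members at that level, Pnpla2, Mgll and Acsl1 reached it in both libraries. Lpl and Plin2 reached it only in the cKO library, where they stood higher, so no count or median over these members is read against all genes. By any amount, 60.1% of the 6747 genes stood higher in cKO cells.

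The share of cells with Lpl depends on depth, and the gap in shares was smaller when depth was made equal. A UMI of Lpl was found in 0.674% of control cells (0.486 to 0.911) and 9.61% of cKO cells (8.96 to 10.3). After each cell was thinned to 1000 UMIs, leaving out 585 control and 132 cKO cells below that depth, the shares were 0.549% (0.374 to 0.779) and 2.43% (2.09 to 2.80). The ratio of Lpl levels in the thinned cells was 5.01 (3.44 to 7.51). The sort held no cell type in number that lacks Lpl, so the share that free RNA would give was not measured. In the small cluster led by Ttr, set apart from the microglia-like cells, 2.33% of 43 cKO cells had a UMI of Lpl at a median of 1509 UMIs per cell. That is 1 cell.

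Lpl RNA was also spread unevenly over cKO cells. No UMI of it was seen in 6928 of the 7665 cells, 512 cells had 1, 205 cells had 2 to 4, and 20 cells had 5 or more, up to 32 in 1 cell. Those 20 cells held 15.1% of all Lpl UMIs, and the 77 cells with most Lpl (the top 1 in 100) held 31.0%. For Pnpla2, with more UMIs in all, the 77 cells with most held 11.2%, for Acsl1 10.6% and for Mgll 8.12%. Among members with fewer UMIs than Lpl the share was 17.3% for Plin2 (884 UMIs) and 22.1% for Plin3 (551 UMIs). It was 19.35% for Dgat1 (491 UMIs) and 90.55% for Fabp5 (127 UMIs), and 100% for Fabp3 and Cd36. This share depends on the number of UMIs, so members of unlike counts are not directly comparable. Without the 20 cells the level in cKO cells was 26.2 CPM and the ratio 4.96. In control cells the highest count of Lpl in 1 cell was 3.

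The other fatty acid genes were compared between cKO cells by their Lpl count, as a description of 1 library in which the classes are ranges and not cell types. Plin2 stood at 22.38 CPM (20.8 to 24.0) in cells without Lpl, 25.1 CPM (19.7 to 31.6) with 1 UMI, 33.2 CPM (23.5 to 45.6) with 2 to 4 and 48.3 CPM (17.7 to 105) with 5 or more. The intervals of neighbouring classes overlapped. Mgll went the other way, at 95.7 CPM (92.4 to 99.0), 85.6 CPM (75.4 to 96.9), 75.2 CPM (60.2 to 92.9) and 72.4 CPM (33.1 to 137.5), again with intervals that overlapped. Lipa, the lysosomal lipase gene, stood at 196 (191.5 to 201), 221.5 (205 to 239), 267 (238 to 298) and 290 CPM (203 to 401) in the same order. Lipa is the only gene given here in full of 82 list genes that are not members, all counted by Lpl class. How many of the 82 rose in this way was not counted. Lrp1, for instance, stood at 383, 385, 352.5 and 370 CPM, and Abhd6 at 150, 147, 150 and 96.6 CPM. Acsl1, at 48.5, 45.5, 39.4 and 32.2 CPM, had lower values with more Lpl, and the intervals of all 4 classes overlapped. Fabp5 had 113 of its 127 UMIs in the 6928 cells without Lpl, at 3.30 CPM (2.72 to 3.97), and 3.40 CPM (1.63 to 6.25) in cells with 1 UMI of Lpl, so no link between the 2 genes was detectable. Cells with more Lpl had been read more deeply, with medians of 4773 UMIs without Lpl and 5981 UMIs with 5 or more, and each level is relative to the UMIs of its own class.

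**Figure D1:**
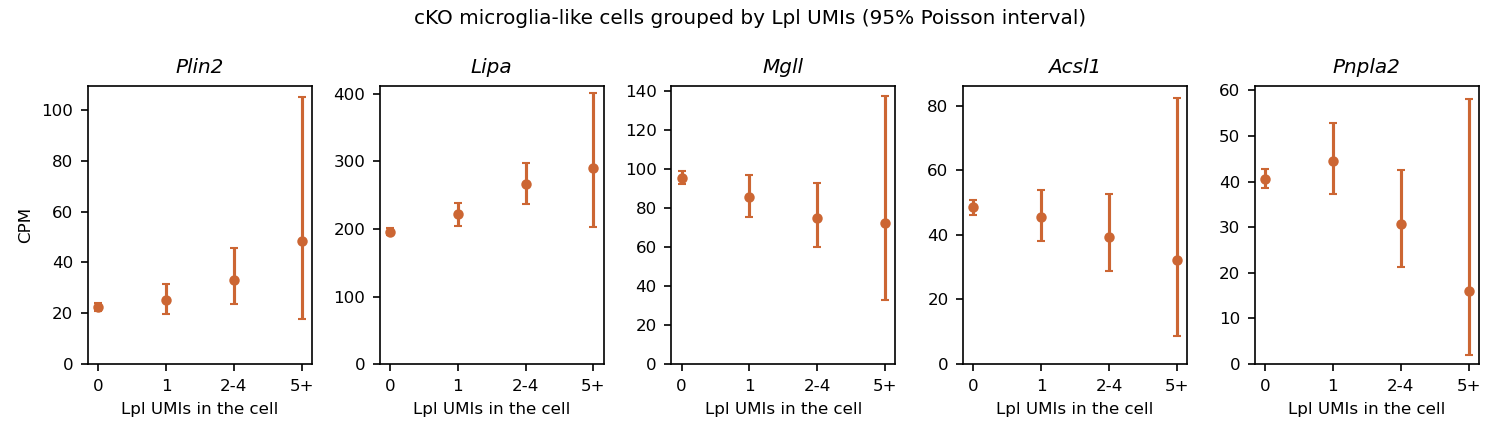
Level of 5 fatty acid genes (CPM, vertical axis, with 95% Poisson intervals) in cKO microglia-like cells grouped by their count of Lpl UMIs (horizontal axis; 6928, 512, 205 and 20 cells). Plin2 goes from 22.38 to 48.3 CPM and Lipa from 196 to 290 CPM with more Lpl, Mgll from 95.7 to 72.4 CPM, and the intervals of the last class are wide. Plin3, not shown, goes from 14.2 to 8.05 CPM. Lipa is the only gene shown of the 82 list genes that are not members.

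Cd36 encodes a scavenger receptor that also carries fatty acids across the membrane (chromosome 5, 17781690 to 17888801). It had 1 UMI in control and 3 UMIs in cKO microglia, with a ratio of 0.710 and an interval of 0.0570 to 37.3. No difference in Cd36 was detectable at this depth.

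The fatty acid binding proteins carry fatty acids in the cytosol. Fabp5, the epidermal type (chromosome 3, 10012548 to 10016607), had 10 UMIs, or 1.10 CPM (0.527 to 2.02), in control and 127 UMIs, or 3.30 CPM (2.75 to 3.93), in cKO microglia. The ratio was 3.01 (1.58 to 6.42). Of the 127 UMIs, 28 lay in 3 cells with 5 or more, up to 14 in 1 cell, and without these 3 cells the ratio was 2.34. Over cells with at least 1000 genes the ratio was 9.27, with an interval of 1.63 to 369. Thinned to 1000 UMIs, 0.0886% of control cells (0.0288 to 0.207) and 0.265% of cKO cells (0.162 to 0.410) had a UMI of Fabp5, and these intervals overlapped. Fabp3, the heart type (chromosome 4, 130308595 to 130315463), had 6 and 17 UMIs, with a ratio of 0.670 (0.252 to 2.08). Cells outside the microglia-like clusters held much of the Fabp3 RNA. In the cluster led by Ttr and Enpp2 it stood at 302 CPM in 11 control and 125 CPM in 43 cKO cells, and Fabp5 at 177 CPM in the cKO cells. That cluster was left unnamed, and 6 of 16 microglia markers were detected in it.

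Both carriers have processed pseudogenes that nearly repeat their coding sequence, so reads could be placed on either copy. The coding sequences of the carriers themselves are far apart, with 60.2% of 357 aligned bases identical between Fabp5 and Fabp3. By contrast Fabp5 matched the pseudogene Gm6166 (chromosome 9, 57483963 to 57484371) at 402 of 407 bases and Fabp3 matched Fabp3-ps1 (chromosome 10, 86731987 to 86732388) at 399 of 402 bases. A stretch of 150 bases from each pair, read from the GENCODE M21 transcripts of GRCm38, shows how few letters separate the copies. Capitals mark the bases that differ within a pair. The Fabp5 stretch covers coding bases 1 to 150 and differs at 1 base, and the Fabp3 stretch covers coding bases 185 to 334 and differs at 2.
Fabp5: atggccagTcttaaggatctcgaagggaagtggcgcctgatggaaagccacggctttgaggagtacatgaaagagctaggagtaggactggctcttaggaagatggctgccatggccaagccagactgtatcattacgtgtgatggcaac
Gm6166: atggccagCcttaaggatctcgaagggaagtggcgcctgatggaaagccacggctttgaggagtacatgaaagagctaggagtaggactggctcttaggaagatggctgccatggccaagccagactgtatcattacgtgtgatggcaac
Fabp3: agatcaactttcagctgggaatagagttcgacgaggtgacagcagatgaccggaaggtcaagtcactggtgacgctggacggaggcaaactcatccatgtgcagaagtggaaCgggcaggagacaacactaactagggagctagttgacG
Fabp3-ps1: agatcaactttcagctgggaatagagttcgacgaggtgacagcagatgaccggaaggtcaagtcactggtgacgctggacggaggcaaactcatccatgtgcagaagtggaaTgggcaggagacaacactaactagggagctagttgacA
Of the bulk counts 181 stood on Gm6166, 1.19% of the 15154 counts on Fabp5 over all 13 libraries, and 63 counts on Fabp3-ps1, 0.618% of the 10196 counts on Fabp3. No copy with at least 90% identity over 100 coding bases was found for Lpl, Cd36, Plin3, Pnpla2, Mgll, Acsl1 or Dgat1. Fabp3 also overlaps Zcchc17 on the opposite strand and Mgll overlaps Gm26588, and as the strand setting of the counting is not given, reads shared with those genes cannot be told apart.

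Acsl1 encodes a long-chain acyl-CoA synthetase (chromosome 8, 46471037 to 46536051). It stood at 54.7 CPM (50.04 to 59.8) in control and 47.9 CPM (45.8 to 50.2) in cKO microglia, a ratio of 0.876 (0.793 to 0.969). Dgat1, which performs the last step of triglyceride synthesis (chromosome 15, 76502015 to 76511953), stood at 13.6 CPM (11.3 to 16.2) and 12.8 CPM (11.7 to 14.0), a ratio of 0.937 (0.768 to 1.15). The interval of Dgat1 spans 1 and leaves room for a level 1.15 times that of control.

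Plin2 and Plin3 encode perilipins, the coat proteins of lipid droplets. Plin2 (chromosome 4, 86648386 to 86670060) stood at 17.0 CPM (14.5 to 19.9) in control and 23.0 CPM (21.5 to 24.6) in cKO microglia, a ratio of 1.35 (1.14 to 1.61). Plin3 (chromosome 17, 56277476 to 56292873) stood at 11.5 CPM (9.44 to 14.0) and 14.3 CPM (13.2 to 15.6), a ratio of 1.24 (1.01 to 1.54). Over cells with at least 1000 genes the ratio of Plin2 was 1.05 (0.813 to 1.39).

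Pnpla2 encodes ATGL, the lipase that starts the breakdown of droplet triglyceride (chromosome 7, 141455198 to 141460743). It stood at 34.6 CPM (30.9 to 38.7) in control and 40.6 CPM (38.6 to 42.6) in cKO microglia, a ratio of 1.17 (1.04 to 1.33). Mgll encodes monoacylglycerol lipase, which ends that cascade and also degrades the endocannabinoid 2-arachidonoylglycerol (chromosome 6, 88724412 to 88828360). It stood at 122 CPM (115 to 130) and 94.2 CPM (91.2 to 97.4), a ratio of 0.772 (0.721 to 0.826). The first and the last lipase of the cascade thus stood on opposite sides of 1.

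Different clusters held most cells of the 2 libraries, and the members differed within them to other degrees. Cluster 0, led by Fos and Egr1, took in 5604 of the 6227 control cells but 8.15% of the microglia-like cKO cells. Cluster 1, led by histone genes, held 3.76% and 53.8%, and cluster 2, led by Apoe and Lyz2, held 6.25% and 38.0%. Lpl stood higher in cKO cells of each, at 19.3 against 4.34 CPM in cluster 0 (ratio 4.45, 2.85 to 7.03), 32.5 against 9.72 CPM in cluster 1 (3.34, 1.43 to 10.3) and 30.1 against 15.2 CPM in cluster 2 (1.98, 0.993 to 4.61). Control cells gave 35, 5 and 8 UMIs of Lpl there. Mgll had ratios of 0.748 (0.650 to 0.859), 0.873 (0.668 to 1.16) and 1.01 (0.760 to 1.36) in clusters 0, 1 and 2. Plin2 had ratios of 1.21 (0.866 to 1.68), 0.962 (0.545 to 1.87) and 1.08 (0.609 to 2.11), each with an interval that spans 1. Pnpla2 stood at ratios of 1.117, 1.44 and 1.61 and Acsl1 at 0.846, 0.825 and 0.801, with intervals that spanned 1 in all 3 clusters. Fabp5 gave a ratio of 1.68 (0.361 to 6.61) in cluster 0 and 0.815 (0.266 to 4.06) in cluster 2. In cluster 1 it had 0 UMIs in control cells, with a Poisson interval of up to 7.17 CPM, and 2.72 CPM (2.08 to 3.50) in cKO cells. Clusters 1 and 2 held few control cells, 234 and 389, which sets the width of these intervals.

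**Figure D2:**
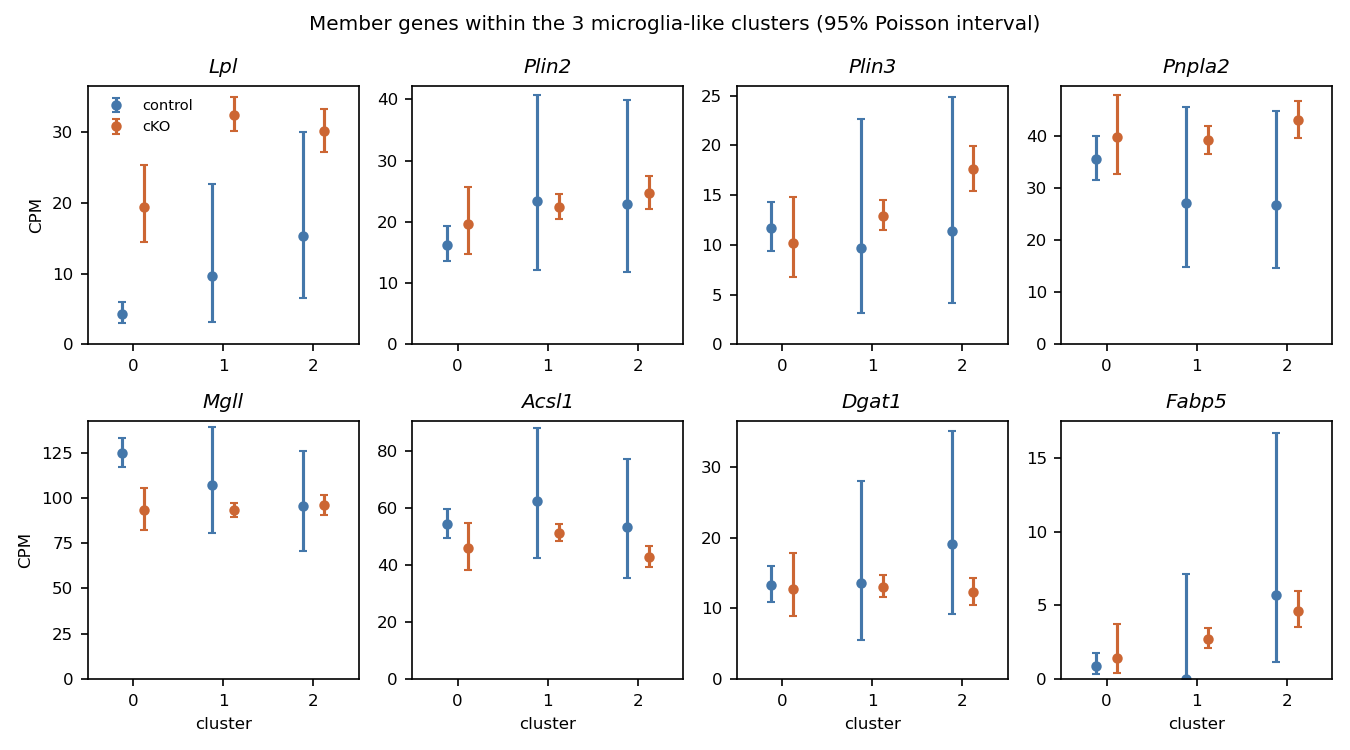
Level of 8 members (CPM, vertical axis, each panel on its own scale from 0) in control (blue) and cKO (orange) cells of the 3 microglia-like clusters (horizontal axis), with 95% Poisson intervals. Lpl is higher in cKO cells of each cluster, from 19.3 against 4.34 CPM in cluster 0 to 30.1 against 15.2 CPM in cluster 2. Its intervals overlap in cluster 2 (27.25 to 33.2 in cKO, 6.58 to 30.0 in control), and those of Plin2 and Dgat1 overlap in all 3.

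The wider pathway was compared in microglia in the same way. Of 92 genes in 9 lists that cover uptake, carriers, activation, triglyceride synthesis, droplets, lipolysis, beta-oxidation, fatty acid synthesis and regulators, 41 had at least 20 CPM in 1 library, 5 of them only in the cKO and 1 only in the control library. Lpl and Lipa stood at least 1.5-fold higher, where 1.79% of all genes did, and 0 genes stood at least 1.5-fold lower, where 1.38% did. The median log2 ratio was 0.11 over the 41 and 0.04 over all 6747 genes. Lpl is among the 5 that reached 20 CPM only in the cKO library, where they stood higher. Neither these counts nor this median is therefore read against all genes. In the lists below, the counts of genes that stood higher lie beside 60.1% of all genes and are not read against it either. In the uptake list Lipa, which frees fatty acids inside lysosomes, stood at 201 against 108 CPM (ratio 1.86, 1.74 to 1.99), and Scarb1, a lipoprotein receptor, at 24.1 against 18.6 CPM (1.30, 1.10 to 1.54). All 3 acyl-CoA synthetases at that level stood lower, with Acsl4 at a ratio of 0.795 (0.719 to 0.880), Acsl1 at 0.876 and Acsl5 at 0.985 (0.882 to 1.10). No carrier gene reached 20 CPM. In triglyceride and sterol ester synthesis 5 of 7 stood higher, led by Soat1, which esterifies cholesterol (1.20, 1.11 to 1.30), and Lpin1 (1.19, 1.07 to 1.32). Beside the perilipins the droplet list held Hsd17b11 (1.18, 1.11 to 1.25) and Bscl2, which encodes seipin (0.904, 0.825 to 0.993). In lipolysis Lipe, the hormone-sensitive lipase gene, had a ratio of 0.856 (0.744 to 0.988). In beta-oxidation 7 of 10 stood higher, among them Acadvl, which encodes an acyl-CoA dehydrogenase of mitochondria (1.26, 1.08 to 1.48). Cpt1a, which admits fatty acids to mitochondria, stood lower, at 13.7 against 20.2 CPM (0.679, 0.573 to 0.807). Fads1 (0.797, 0.718 to 0.887), Scd2 (1.124, 1.01 to 1.25) and Acly (1.118, 1.01 to 1.23) led the synthesis list, and Rxra (1.20, 1.05 to 1.37), Nr1h2 (1.18, 1.05 to 1.33) and Mlxipl (1.02, 0.958 to 1.09) led the regulators.

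The bulk comparison set cKO against control forebrains in mice with amyloid. None of the 10 members passed the test there (edgeR's quasi-likelihood test, Benjamini-Hochberg adjusted p under 0.05), where 0.33% of the 16956 genes tested were called, 47 lower (0.277%) and 9 higher (0.0531%). In no member were the groups free of overlap, where 0.442% of all genes were so separated, 0.313% with all cKO libraries below all controls and 0.13% with all above. DESeq2 called 0 of the 10 as well, and 2 of the 10, Cd36 and Dgat1, had an unadjusted p under 0.05, a level reached by 7.71% of all genes. The median log2 change of the members was 0.04, against 0.00 over all genes.

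Lpl ran from 29.6 to 39.9 CPM in control forebrains (median 34.1) and from 23.3 to 34.9 CPM in cKO forebrains (median 31.4). The groups overlapped, with 1 cKO library below all controls. The log2 change was -0.15 (SE 0.08, 95% interval -0.32 to 0.03, edgeR adjusted p = 0.688), so no higher level was detected in cKO forebrains. Forebrain libraries mix RNA of all cell types, so a change confined to microglia would not show there at its full size. The samples differ in amyloid and in cell makeup, and the 2 comparisons were not tested against each other.

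Cd36 was the least abundant member, with 24 to 54 counts per library. It ran from 1.72 to 3.09 CPM in controls (median 2.29) and from 1.40 to 2.06 CPM in cKO forebrains (median 1.598), and 4 of 7 cKO libraries lay below all controls. Its log2 change of -0.46 (SE 0.18, interval -0.83 to -0.08) had an unadjusted p of 0.0185 and did not pass after adjustment by edgeR over all genes (adjusted p = 0.561).

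Fabp3 ran from 29.8 to 45.5 CPM in controls (median 41.0) and from 31.9 to 58.3 CPM in cKO forebrains (median 41.2). Its medians nearly coincided, and its log2 change was 0.10 (SE 0.12, interval -0.16 to 0.37, adjusted p = 0.861). Fabp5 ran from 53.1 to 70.1 CPM (median 61.7) and from 53.3 to 67.7 CPM (median 61.4), with a log2 change of -0.03 (interval -0.18 to 0.12). The cKO range of Fabp5 lay wholly inside that of the controls.

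Acsl1 ran from 55.3 to 63.8 CPM in controls (median 57.6) and from 55.8 to 64.9 CPM in cKO forebrains (median 61.5), a log2 change of 0.05 (interval -0.06 to 0.16). Dgat1 ran from 13.5 to 17.8 CPM (median 16.1) and from 16.1 to 22.9 CPM (median 17.9), and 4 of 7 cKO libraries lay above all controls. Its log2 change of 0.21 (SE 0.09, interval 0.03 to 0.39) had an unadjusted p of 0.0261 and an adjusted p of 0.598 by edgeR.

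Plin2 ran from 6.98 to 8.98 CPM (median 7.72) and from 7.07 to 9.88 CPM (median 8.40), with a log2 change of 0.06 (interval -0.14 to 0.27). Plin3 ran from 14.5 to 17.7 CPM (median 16.4) and from 13.7 to 19.9 CPM (median 15.8), with a log2 change of 0.02 (interval -0.15 to 0.20). In both coat genes the ranges of the groups overlapped over most of their length.

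Pnpla2 ran from 17.5 to 23.1 CPM (median 22.2) and from 21.5 to 24.4 CPM (median 23.2), with 4 cKO libraries above all controls and a log2 change of 0.12 (interval -0.04 to 0.27, adjusted p = 0.715). Mgll ran from 173 to 186 CPM (median 184) and from 172 to 190.4 CPM (median 187.5), with a log2 change of 0.01 (interval -0.07 to 0.10). Mgll was the member with the narrowest interval, which leaves room for a change of at most 0.10 upward and 0.07 downward on the log2 scale.

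**Figure D3:**
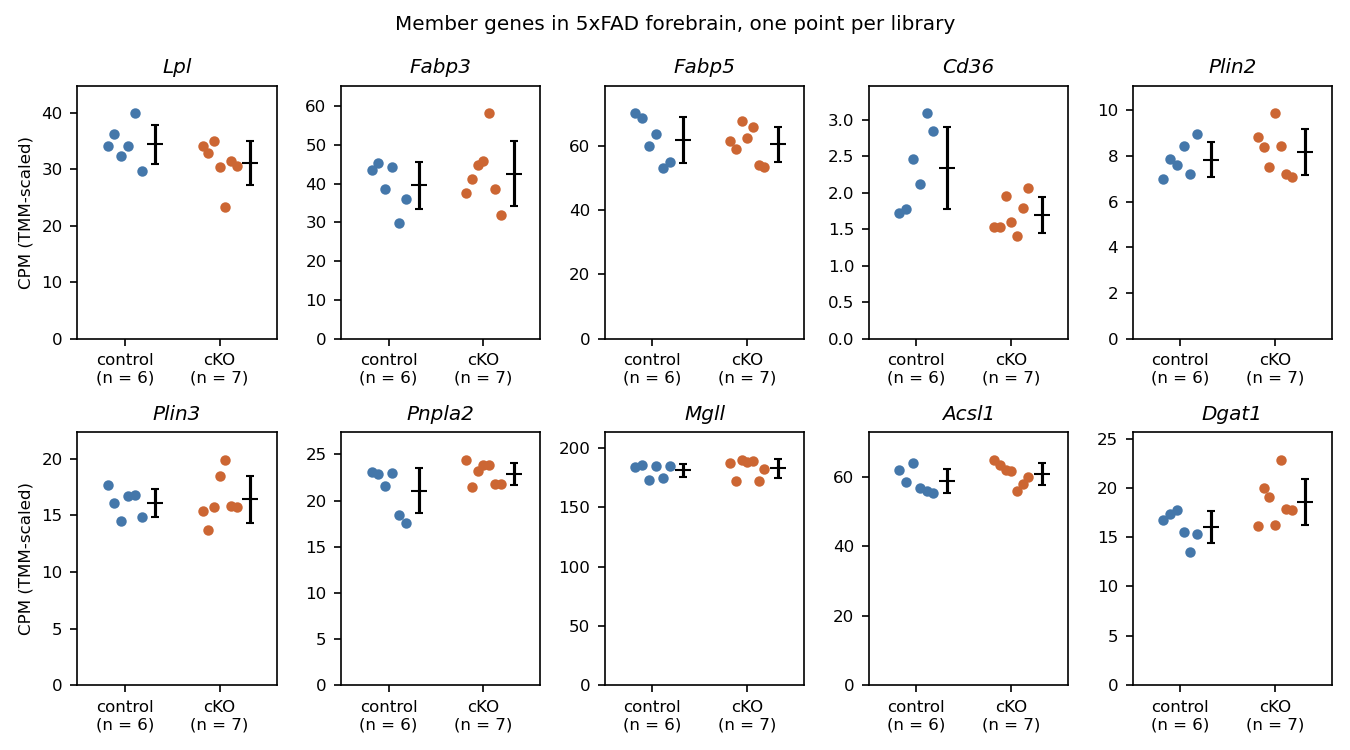
CPM of the 10 members in each 5xFAD forebrain library (vertical axes from 0, each panel on its own scale), 6 control (blue) and 7 cKO (orange), with mean and SD in black. Control and cKO points overlap in all 10 panels, and the lowest Lpl point is the cKO library at 23.3 CPM.

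**Figure D4:**
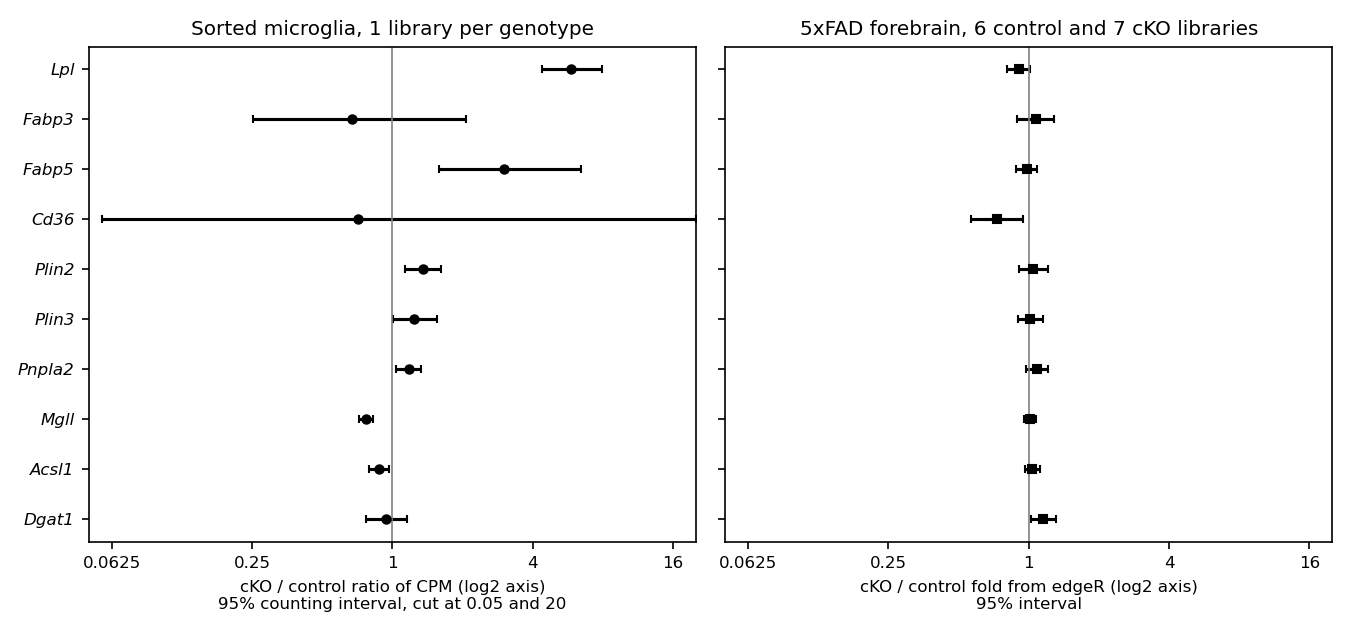
cKO over control ratio of the 10 members (log2 horizontal axis) in sorted microglia, left, with 95% counting intervals that do not cover spread between mice, and in 5xFAD forebrain, right, with 95% intervals from edgeR. On the left Lpl stands at 5.82 and Mgll at 0.772, and the interval of Cd36 runs past the axis; on the right the members lie close to 1.

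Of 92 pathway genes 86 were tested in forebrain and 0 were called, by edgeR or by DESeq2, against 0.33% of all genes. Of the 86, 11 had an unadjusted p under 0.05, where 7.71% of all genes did. The median log2 change was 0.01. The gene with the smallest p was Lrp1, a large lipoprotein receptor, at 423 ± 24.7 CPM in controls (SD, n = 6) and 360 ± 38.9 CPM in cKO forebrains (SD, n = 7), with a log2 change of -0.23 and an edgeR adjusted p = 0.211. Without cKO library 1 its adjusted p was 0.0484, and over 18 alternatives it ran up to 0.488. The genes with the smallest p in the other lists were Fabp7 (log2 change -0.09), Acsl4 (-0.13), Dgat1, Cideb (0.62, from 0.544 CPM), Pnpla3 (0.35), the carnitine carrier gene Slc25a20 (0.21), Scd1 (-0.12) and Ppara (0.26), with edgeR adjusted p values of 0.566 to 0.760. The filter on low counts left out Gpihbp1, Fabp4, Plin1, Cidec, Hsd17b13 and Ces1d.

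Within each genotype group the members varied between forebrain libraries in shared ways. On log2 CPM after subtraction of group means, Fabp5 went with Fabp3 and with Pnpla2 (Pearson r = 0.82 for both pairs, 13 libraries), and Cd36 went against Pnpla2 (-0.79), Fabp5 (-0.78) and Fabp3 (-0.74). All values come from the same 13 libraries and share their scaling, and they are a description. Of all genes tested, the one most like Fabp3 was Ppp1r1b, a marker of striatal neurons, with r = 0.98 (Spearman 0.96). The most alike were Zxdb for Lpl (r = 0.93), Rab14 for Cd36 (0.96), Gm10156 for Fabp5 (0.96), Zfp467 for Acsl1 (0.89) and Cpne6 for Dgat1 (0.93). Gm10156 was not among the copies of Fabp5 found by the search for pseudogenes. For the droplet coat and lipase genes they were Tspan18 for Plin2 (0.89), Klhl21 for Plin3 (0.90), Espn for Pnpla2 (0.96) and Foxl2 for Mgll (0.93).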

How the data were processed

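The deposited single-cell counts are UMIs for each gene in each barcode. Per the file headers they came from Cell Ranger 6.1.0, and per the labels from 10x 3' v3 libraries. Bulk values are read counts per Ensembl gene, deposited by the authors. The submitters' processing notes name HISAT2 2.0.5, featureCounts 1.5.0-p3 and the build mm10. Annotation release and strand setting: not given in the sources used here. Neither kind of deposited count had been normalized, judged from whole numbers and unequal totals.

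Bulk counts were tested in R 4.3.3 with edgeR 4.0.16 (filterByExpr, TMM, its robust quasi-likelihood test for genotype, Benjamini-Hochberg over 16956 genes, threshold 0.05). DESeq2 1.42.0 was an alternative. CPM use TMM-scaled totals and RPKM use exon lengths of GENCODE M21. On simulated counts for 7 against 6 libraries over 16824 genes, 98% of genes at 1.5-fold and 96% at 0.667-fold were called, and 4 of 201 calls were false. Changes were set only in genes above a minimum mean count, and every gene was given the same spread. These shares were therefore not measured for genes as scarce as Cd36 (24 to 54 counts per library) or for genes that vary more. Same-numbered libraries of the 2 groups varied little together (correlations of deviations from -0.257 to 0.158), and the numbers were not used to pair samples in the main fit. So few pairs cannot show that no pairing exists.

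For single cells, scanpy 1.11.5 (Python 3.11.15, python-igraph 0.11.9) was used. A filter of 500 or more genes and no more than 10% mitochondrial UMIs left 6243 of 6633 control and 8874 of 9840 cKO barcodes. They were clustered together (2000 variable genes, 30 components, 15 neighbours, Leiden resolution 0.5). The name microglia-like was given to clusters with 3 or more detected markers whose 10 leading genes held no more markers of another type than of microglia. A cluster of 1166 cKO and 5 control cells stayed unnamed for its low UMI count. The libraries shared 22 barcode sequences. Scrublet called 1 doublet in control and 0 in cKO cells and so did not work, and doublets remain. UMIs were summed per library. Intervals are exact Poisson for CPM, exact binomial for ratios and Clopper-Pearson for shares, at 95%.

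The members and lists were chosen with earlier results of these data known. The text names all members, in bulk every called list gene and otherwise the gene of smallest p in each list, and in single cells up to 3 genes per list with the largest ratios, except 1 gene that is not reported here. For each member the gene of highest Pearson correlation over 13 libraries is given. The classes of cells by Lpl count were chosen after seeing the data. Promoters of Lpl and Fabp5 are not shown. Pseudogenes were found with a blastn search of each member's coding sequence against GENCODE M21 transcripts.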

Additional observations from a re-analysis of the deposited data

Results flagged for a closer look

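Lpl in the forebrain of cKO library 5 stood at 23.3 CPM, further below the other 6 cKO libraries (30.4 to 34.9 CPM) than a test for a single far value allows. This was 1 of 20 groups of libraries checked, and chance flags about 1 in 20. Without that library the log2 change of Lpl was -0.09 (edgeR adjusted p = 0.936). The same library had the highest cKO level of Fabp3, 58.3 CPM, of Dgat1, 22.9 CPM, and of Plin3, 19.9 CPM.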

How the results depend on the processing

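In forebrain no member was called under any of the 18 alternatives. With 1 library left out, with edgeR on DESeq2 size factors, with DESeq2 itself and without the count filter, Acsl1, Cd36, Dgat1, Fabp3, Lpl, Mgll, Plin2 and Pnpla2 also kept their direction. Fabp5 ranged from -0.069 to 0.009 and Plin3 from -0.028 to 0.065. Fabp5 turned to 0.009 without control 1, 0.006 without control 2 and 0.001 without cKO 7, and Plin3 to -0.001 without control 3, -0.004 without cKO 4 and -0.028 without cKO 5 (log2 change); the cause was not tested. Over all genes, DESeq2 called 16 higher and the fit without a count filter 23. With 1 library left out, 30 (without control 5) to 50 (without cKO 1) genes were lower and 3 (without control 3, control 4 or cKO 7) to 23 (without cKO 1) higher, and 0 to 1 pathway genes were called. A replicate block over numbers 1 to 6 called 19 genes lower and 1 higher, against 34 lower and 3 higher in the same 12 libraries without the block, and turned Fabp5 to 0.005 (0.001 in those libraries without it); that last fit was chosen after seeing the data. Only 1 of the 6 control libraries correlated best with the cKO library of its own number.

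In microglia Lpl stood at least 1.98 times higher under each of 8 alternatives, and at 5.01 after thinning. With cells of at least 1000 genes the ratio of Fabp5 was 9.27. Cluster 0 turned Plin3 to 0.876. Cluster 1 turned Plin2 to 0.962. Cluster 2 turned Fabp5 to 0.815 and Mgll to 1.01. Pathway genes at least 1.5-fold higher among those at 20 CPM or more numbered 0, 4 and 5 within clusters 0, 1 and 2, and those lower 2, 2 and 1. Lpl is not counted in cluster 0, where it stood 4.45 times higher but at 19.3 CPM. In all clusters together 1 gene was lower with median-of-ratios scaling, with cells of at least 1000 genes and after thinning. Within clusters 1 and 2 there were few control cells, and for Fabp3, Fabp5 and Cd36 few UMIs limit what can be seen.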

Other observations

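The cluster of low-UMI cKO cells, led by Gm26917 and left out of the microglia-like cells, held the members at other levels. In its 1166 cKO cells (median 1130 UMIs) Acsl1 stood at 84.5 CPM and Dgat1 at 20.8 CPM, above their levels in the cKO cells of clusters 0, 1 and 2. Lpl (14.1 CPM), Plin2 (10.7 CPM) and Pnpla2 (16.1 CPM) stood below theirs, and Mgll, at 95.8 CPM, lay close to them. The intervals of Acsl1 and Pnpla2 lay apart from those of clusters 0, 1 and 2. Those of Lpl (8.71 to 21.5, 21 UMIs) and Plin2 (6.13 to 17.4, 16 UMIs) overlapped cluster 0. That of Dgat1 (14.1 to 29.5, 31 UMIs) overlapped clusters 0, 1 and 2. With 5 control cells in that cluster there was no comparison by genotype.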
